A study of Homo sapiens with 12 samples.

Results

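The unfolded protein response of the endoplasmic reticulum (ER) was followed through 36 genes of the ATF6 and XBP1 arms, ER chaperones and disulphide isomerases, ER degradation, and protein translocation and export, chosen by name without genes of the ATF4 arm. The deposited table lists 23500 entries, and the 36 symbols stand on 42 of them, because ATF6B, CANX, DERL3 and HYOU1 also have entries on alternate sequences of the genome. The entry on the primary chromosome was used for these 4 genes, and all 36 genes had enough counts to be tested. The other entries held counts too, and the levels given for these 4 genes leave them out. RNA sequencing was available for 12 libraries, 3 in each of 4 groups, from HEK293T cells, an embryonic kidney line that depends on methionine, and from R1, a clone of it that proliferates when homocysteine replaces methionine. Cells spent 12 h in +Met or in −Met+Hcy medium, the latter with homocysteine, which cells methylate to methionine, as its substitute. Both media were made from a base without methionine and cystine, with dialysed serum, cysteine, glutamine and vitamin B12 added in all 4 groups. R1 is 1 clone, so what belongs to its methionine independence and what belongs to that clone cannot be told apart. R1 libraries were recognised by their titles, since their cell line label reads HEK293T. Nothing in the sources says that replicates came from separate cultures, so p-values measure only the spread between these libraries.

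Proteins that fail to fold in the ER are sensed by 3 membrane proteins. IRE1, encoded by ERN1, splices the XBP1 mRNA into the form that encodes an active transcription factor, ATF6 is cut in the Golgi to release another factor, and PERK phosphorylates the initiation factor eIF2, which favours translation of ATF4. The first 2 routes raise chaperones such as BiP (HSPA5), its cofactors and the machinery that sends misfolded proteins to the proteasome. The eIF2 and ATF4 route is also used by GCN2, a kinase that senses uncharged tRNA, so that ATF4 targets can rise when amino acids are short without the other arms. The comparisons below ask whether genes of the ATF6 and XBP1 arms moved with the ATF4 targets in −Met+Hcy medium.

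ATF6 and XBP1 act through short DNA elements, and the promoters of HSPA5, XBP1, HERPUD1, HSP90B1 and CALR are shown for that reason. Promoters were 300 bases, from 250 before to 50 after an annotated start, in a RefSeq table of GRCh38.p14 that held 35116 promoters and matched 32 of the 36 genes. The table held 1 or more promoters for a gene, and a gene was counted where any of them matched. The ER stress element ERSE was searched as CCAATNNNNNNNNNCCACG, ERSE-II as ATTGG and CCACG with 1 base between them, the unfolded protein response element UPRE as TGACGTGG and an ATF4 composite element as TGATGNAA, each on both strands. Capitals mark a match, which on the opposite strand reads as the reverse complement.
HSPA5, chr9:125241381-125241419, minus strand, 1 ERSE: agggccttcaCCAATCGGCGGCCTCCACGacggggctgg
XBP1, chr22:28800593-28800631, minus strand, 1 ERSE: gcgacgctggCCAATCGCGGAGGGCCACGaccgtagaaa
HERPUD1, chr16:56931956-56932045, plus strand, an ATF4 composite element and then an ERSE-II: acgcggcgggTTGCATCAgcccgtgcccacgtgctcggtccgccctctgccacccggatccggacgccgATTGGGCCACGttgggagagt
HSP90B1, chr12:103930206-103930349, plus strand, 2 ERSE: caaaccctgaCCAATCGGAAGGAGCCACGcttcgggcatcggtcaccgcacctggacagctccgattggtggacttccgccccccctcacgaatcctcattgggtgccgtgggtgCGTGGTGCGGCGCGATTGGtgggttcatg
CALR, chr19:12938374-12938412, plus strand, 1 ERSE: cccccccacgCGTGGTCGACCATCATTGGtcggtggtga

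ERSE or ERSE-II was found in a promoter of 10 of the 32 genes (31.2%), against 0.161% of all 27305 genes in the table and 0.131% of all promoters of the same length. The genes were chosen by name for the ATF6 and XBP1 arms, which act through such elements. An excess was therefore built into the choice and is not a result of these data. The 10 genes were HSPA5, XBP1, HERPUD1, HSP90B1, CALR, CANX, CRELD2, PDIA6, SDF2L1 and HYOU1. Those printed above are the ones whose HEK293T libraries did not overlap between the media in the levels given below. CANX, CRELD2, PDIA6, SDF2L1 and HYOU1 overlapped and are not printed, so the display does not tie the elements to a response. None of the 26 ATF4 targets with a promoter in the table held either element. Of further ER genes, 2 of 26 for folding and glycosylation held one, against 0 of 15 for degradation and 0 of 22 for translocation and export. The ATF4 composite element was found in 1 of the 32 genes, HERPUD1, in 6 of the 26 ATF4 targets, in 4.46% of all genes and in 3.62% of all promoters. UPRE was found in 2 of the 32, HYOU1 and SSR3, against 0.927% of all genes and 0.729% of all promoters, and in HYOU1 it overlapped an ERSE-II. It was not particular to the members. Of the further ER genes, UPRE was in 4 of 26 for folding, 2 of 15 for degradation and 4 of 22 for translocation and export. It was in 1 of the 26 ATF4 targets and in 0 of 14 other regulators. A match is a description of these letters and does not show that a factor bound there.

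Total counts ran from 12664158 to 18771349 per library, and levels are given as CPM after TMM scaling (normalised CPM). The TMM factors were 0.83 to 0.88 in HEK293T cells in +Met and 0.93 to 1.12 in the other libraries. CPM from column sums alone therefore moved the median log2 fold change of all genes in HEK293T cells from 0.03 to 0.33, and that of R1 against HEK293T from 0.02 to 0.37. R1 −Met+Hcy replicate 3 stood apart from the other libraries of its group. Its mitochondrial share of counts was 8.72%, against 2.38 to 5.24% in the other 11 libraries. Across 11043 genes its deviation from its group had a Spearman's rho of -0.74 with transcript GC content. Replicates 1 and 2 of that group, compared with means that include replicate 3, had 0.60 and 0.73. Libraries of the other groups had -0.34 to 0.54, so a GC trend was not confined to this library. Among the 36 genes, 5 were at least 2-fold above and 5 at least 2-fold below the mean of replicates 1 and 2 in R1 −Met+Hcy replicate 3, with a rho of -0.70 with GC content over the 36. Results are given with and without it, since it also raised the shared estimate of the spread, from a common dispersion of 0.035 to 0.109. The 8 markers of HEK293T cells were detected in every group, and their summed level was 921 to 1081 normalised CPM in HEK293T cells in +Met, 518 to 594 in −Met+Hcy, 767 to 1031 in R1 cells in +Met and 654 to 911 in −Met+Hcy. The sum was thus lower without overlap in HEK293T cells on −Met+Hcy, where VIM, a filament gene among them, had -1.35 on the log2 scale (SE 0.20, adjusted p = 0.0032 by edgeR). The part of this in the results below was not tested. The 12 markers of other cells summed to 11.3 to 38.0.

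In +Met medium the genes spanned a wide range of levels in HEK293T cells. Per kilobase of transcript, the ER lectin chaperone CALR was at 516 normalised CPM, HSP90B1 at 323, PDIA6 at 169, HSPA5 at 156 and XBP1 at 48.1. At the low end of the entries used, ERN1 was at 0.97 and DERL3, a derlin of the degradation channel, at 0.92 normalised CPM per kilobase. The second entry of DERL3 held the same 34, 45 and 34 counts in these libraries, which its level leaves out.

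XBP1 was the single member that changed in HEK293T cells on −Met+Hcy medium, and most of the 36 genes moved by less than 1.5-fold. XBP1 (ENSG00000100219, chromosome 22 from 28794555 to 28800597 in GRCh38), the transcription factor of the IRE1 arm, was at 91.4, 77.2 and 89.6 normalised CPM in +Met and at 143.7, 165.9 and 163.5 in −Met+Hcy. All 3 libraries in −Met+Hcy lay above all 3 in +Met. The gene rose 1.83-fold, a log2 fold change of 0.87 (SE 0.15), with a Benjamini-Hochberg adjusted p of 0.0067 by the quasi-likelihood test of edgeR, and it passed in each of the 12 fits that left out 1 library (log2 fold change 0.80 to 0.94). Gene counts hold both forms of the XBP1 mRNA together, so splicing by IRE1 was not measured.

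With 1 of 36 genes higher and 0 lower, the share called stood beside 4.25% of all 17162 genes tested that were higher and 2.78% that were lower. At an unadjusted p under 0.05 there were 3 higher and 2 lower. The median log2 fold change of the 36 was -0.06, beside 0.03 for all genes, with 14 genes above 0 and 22 below. With column-sum scaling 29 were above 0 and 7 below, and the median of the 36 was 0.24 beside 0.33 for all genes. In 6 genes every −Met+Hcy library was above every +Met library and in 8 every one was below, beside 25.9% and 23.6% of the 13895 genes whose mean reached 1 CPM. By column sums 14 of the 36 were higher and 2 lower (ERP44 and SSR3) without overlap, beside 41.9% and 10.9%, so the split between the directions followed the scaling, and separations named for single genes below are by TMM-scaled levels. A change in the number of cells of one kind and a change in RNA per cell cannot be told apart in these bulk samples.

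**Figure D1:**
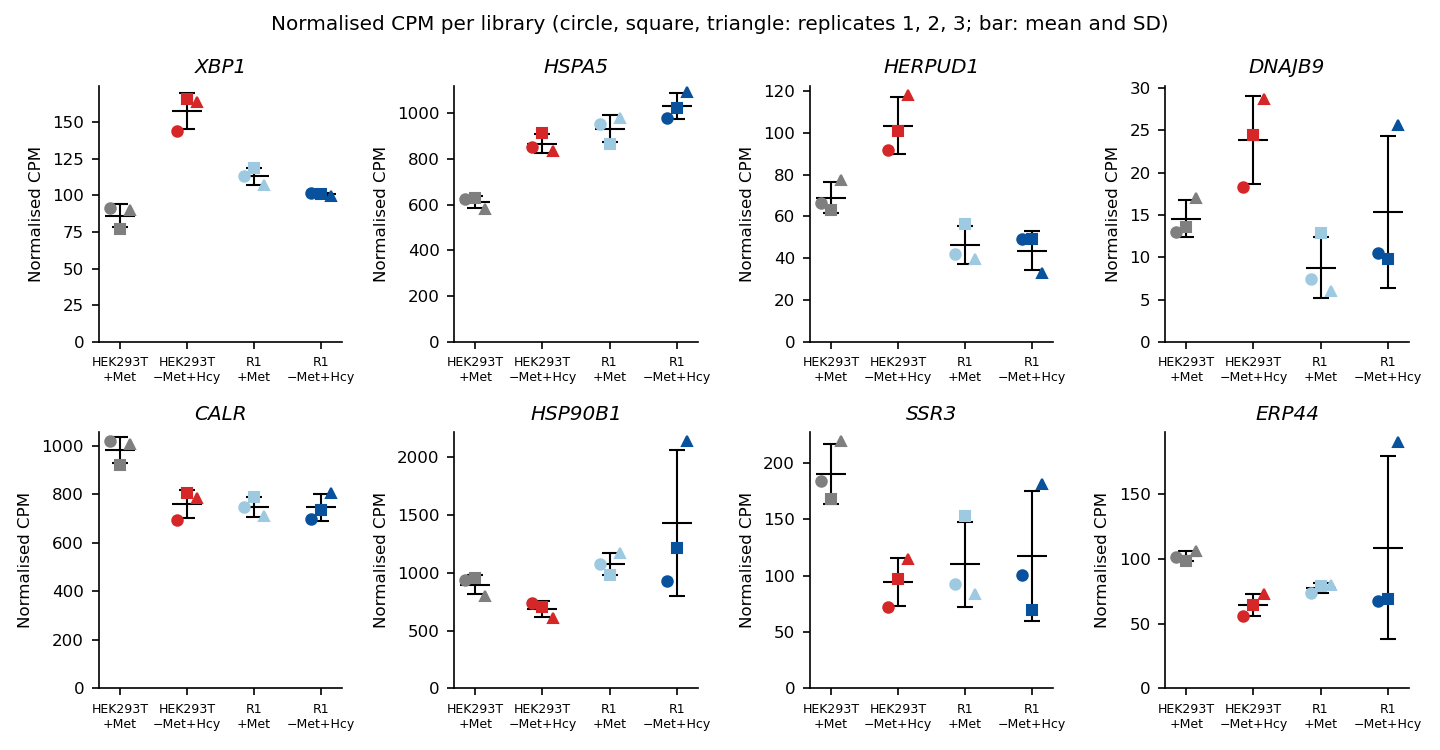
Normalised CPM (y axis, from 0) of 8 of the 36 genes in each library of the 4 groups (x axis), with circles, squares and triangles for replicates 1, 2 and 3 and a bar for the mean and SD. XBP1, HSPA5, HERPUD1 and DNAJB9 sat higher in all 3 HEK293T −Met+Hcy libraries than in all 3 HEK293T +Met libraries. CALR, HSP90B1, SSR3 and ERP44 sat lower in the same way. R1 −Met+Hcy replicate 3 lay apart for HSP90B1, DNAJB9 and ERP44.

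The sensors themselves did not pass the test. ATF6, the membrane-bound factor, was at 85.7, 84.0 and 82.7 normalised CPM in +Met and at 93.4, 98.1 and 97.5 in −Met+Hcy, which gave 0.20 on the log2 scale (SE 0.26, adjusted p = 0.71 by edgeR's quasi-likelihood test). Its paralogue ATF6B had 0.30 (SE 0.29, adjusted p = 0.59 by the same edgeR test), and both genes had every −Met+Hcy library above every +Met library. ERN1, which encodes IRE1, had -0.04 (SE 0.45, adjusted p = 0.97 by the edgeR test) at 5.50 to 8.70 normalised CPM over the 6 libraries.

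HSPA5 (ENSG00000044574, chromosome 9 from 125234853 to 125241382), which encodes BiP, the HSP70 chaperone of the ER, was at 622.9, 626.5 and 581.0 normalised CPM in +Met and at 851.1, 911.5 and 834.8 in −Met+Hcy. The groups did not overlap, and the ratio was 1.42, a log2 fold change of 0.51 (SE 0.15). The adjusted p was 0.068 by edgeR's quasi-likelihood test, and 0.0090 without R1 −Met+Hcy replicate 3. It ran from 0.0090 to 0.24 over the 12 edgeR fits that left out 1 library. Over the other settings, by edgeR or DESeq2 and some of them on fewer libraries, it ran from 0.00011 to 0.15.

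The other chaperones and cofactors stood on both sides of 0. HSP90B1, the HSP90 of the ER, was at 936.6, 953.7 and 802.4 normalised CPM in +Met and at 741.7, 706.3 and 611.8 in −Met+Hcy, without overlap, which gave -0.39 on the log2 scale (SE 0.26, adjusted p = 0.42 by the edgeR test). DNAJB9, a BiP cochaperone and a target of XBP1, was at 13, 13.6 and 17.0 normalised CPM in +Met and at 18.3, 24.5 and 28.7 in −Met+Hcy. Its log2 fold change was 0.71 (SE 0.39, adjusted p = 0.30 by the edgeR test), again without overlap. SDF2L1, a component of the BiP chaperone complex, had -0.24 (SE 0.39, adjusted p = 0.77 by the edgeR test), and CRELD2, a secreted ER stress protein, had -0.05 (SE 0.29, adjusted p = 0.94 by the same test). The signs of these last 2 genes turned with other scalings. Over the 11 chaperones and cofactors, 3 log2 fold changes were above 0 and 8 below, with a median of -0.11 and a range of -0.39 to 0.71. With column sums 9 were above 0, and HSP90B1 and CALR were the 2 below.

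All 5 disulphide isomerases and related proteins (PDIA3, PDIA4, PDIA6, P4HB and ERP44) had log2 fold changes below 0, from -0.67 to -0.05, and none passed the test. With column sums 4 of them were above 0 and ERP44 alone was below, so only its direction held under both scalings. ERP44, which retains cargo at the entry of the secretory pathway, was at 101.5, 98.6 and 106.4 normalised CPM in +Met and at 56.2, 64.2 and 72.8 in −Met+Hcy. The groups did not overlap, and the log2 fold change was -0.67 (SE 0.33, adjusted p = 0.26 by the edgeR test).

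Among the 10 genes of ER degradation, 7 log2 fold changes were above 0, and the largest was that of HERPUD1, a membrane protein that organises the degradation complex. HERPUD1 (ENSG00000051108, chromosome 16 from 56932142 to 56944864) was at 66.5, 63.2 and 77.2 normalised CPM in +Met and at 91.6, 100.7 and 118.2 in −Met+Hcy. The groups did not overlap, the ratio was 1.50 and the log2 fold change was 0.59 (SE 0.21, adjusted p = 0.13 by the edgeR test). The promoter of this gene holds both an ATF4 composite element and an ERSE-II in the sequence printed above, the only one of the 32 with that pair. The ATF4 composite element by itself was in 4.46% of all genes, and no share of all genes is given for the pair. Whether either element had a part in the level of HERPUD1 was not tested. The other 9 genes (EDEM1, EDEM2, EDEM3, SEL1L, SYVN1, DERL1, DERL2, DERL3 and OS9) did not pass, and all of them overlapped between the media in TMM-scaled levels. With column sums all 10 genes were above 0, where the median of all genes was 0.33. DERL1, DERL2, OS9, SEL1L and HERPUD1 were then higher without overlap, beside 41.9% of all genes.

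In translocation and export, SSR3, a subunit of the translocon-associated TRAP complex, had the most negative value of the 36. It was at 184.0, 167.9 and 219.3 normalised CPM in +Met and at 72.7, 96.8 and 115.0 in −Met+Hcy, without overlap, which gave -1.01 on the log2 scale (SE 0.34, adjusted p = 0.10 by the edgeR test). SSR1, another TRAP subunit, had -0.45 and SEC24D, a cargo adaptor of COPII vesicles, had -0.19, each without overlap. By column sums both genes overlapped between the media, and SEC24D had 0.10. SEC61A1, the pore of the translocon, had 0.09, the one value above 0 among these 6 genes, against 2 with column sums.

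Without R1 −Met+Hcy replicate 3, which enters this comparison through the shared spread alone, 6 of the 36 genes changed in HEK293T cells. XBP1, HSPA5 and HERPUD1 were higher, beside 15.2% of all genes, and ERP44, SSR3 and CALR were lower, beside 12.5%. The estimates hardly moved, and the adjusted p values by edgeR were 0.00038 for XBP1, 0.0090 for HSPA5, 0.017 for HERPUD1, 0.0021 for ERP44, 0.0097 for SSR3 and 0.046 for CALR. CALR was at 1019, 918 and 1007 normalised CPM in +Met and at 695, 804 and 784 in −Met+Hcy. With all 12 libraries, 3 of the 10 members with an ERSE or ERSE-II (XBP1, HSPA5 and HERPUD1) had a log2 fold change above 0 and 7 below. Their median was -0.14, beside 0.03 for all genes. With column sums 8 were above and 2 below, with a median of 0.15 beside 0.33 for all genes.

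**Figure D2:**
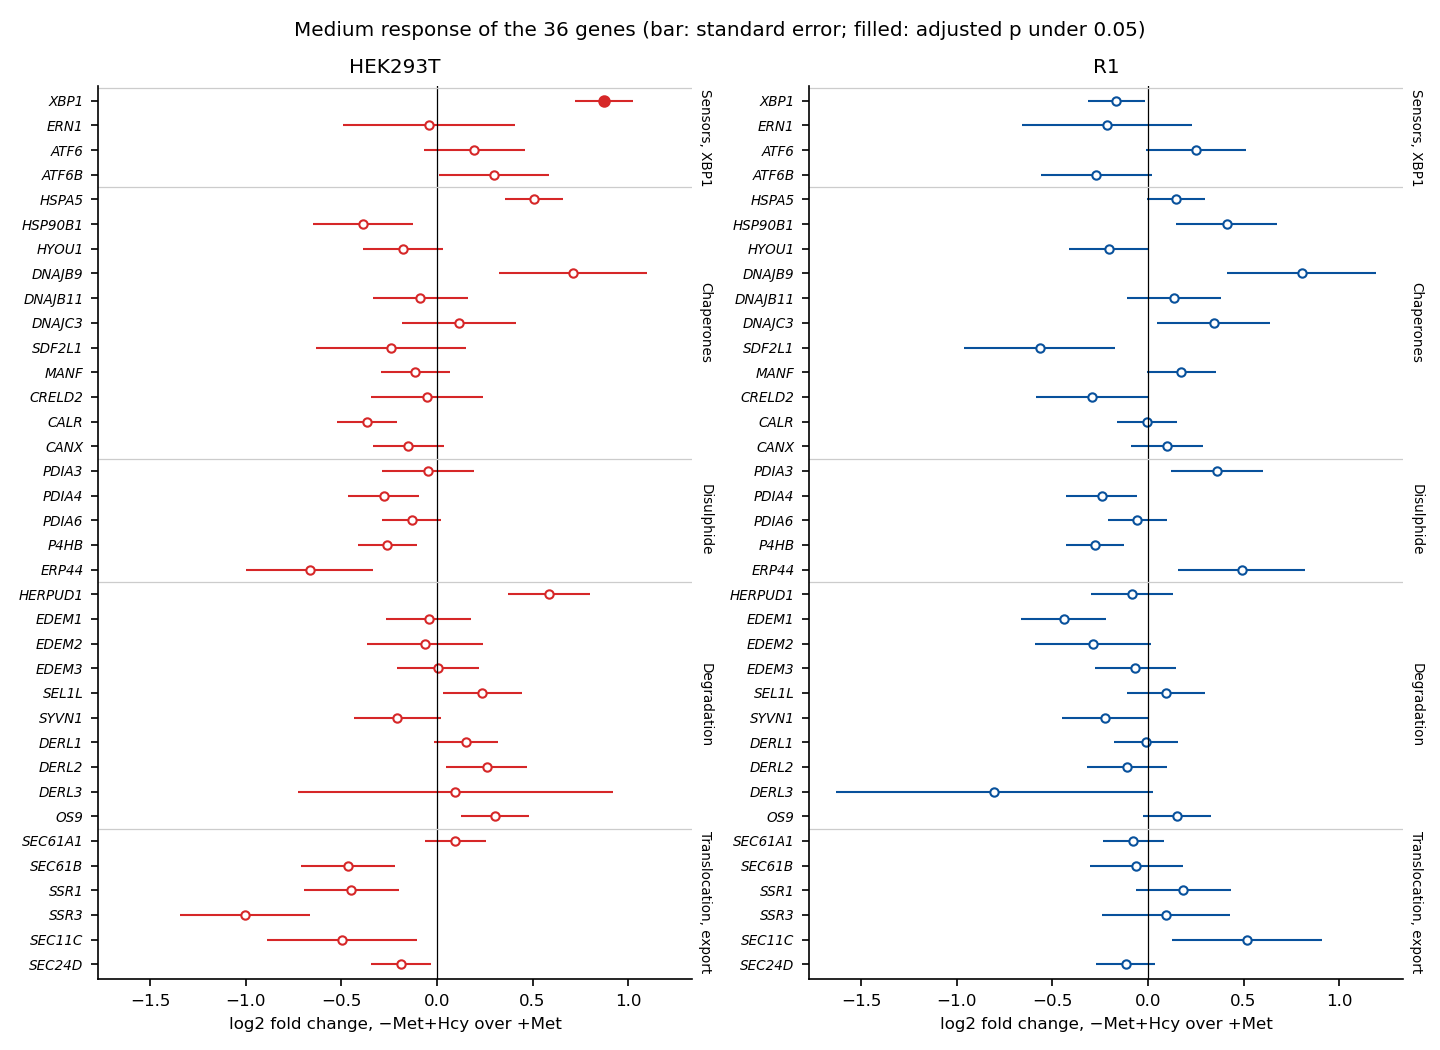
Log2 fold change of −Met+Hcy over +Met (x axis) for the 36 genes (y axis, grouped by role) in HEK293T and in R1 cells, with bars for the standard error and filled points for adjusted p under 0.05 by edgeR. One point, XBP1 in HEK293T cells at 0.87, is filled, and the widest bars are those of DERL3.

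The ATF4 targets, a list chosen with earlier results of these data known, moved by far more in the same libraries. Of 30 genes of the ATF4 arm and amino acid response, 18 were higher and 0 lower in HEK293T cells by edgeR's quasi-likelihood test. Their median log2 fold change was 1.29, and of all genes 4.25% were higher and 2.78% lower. Without R1 −Met+Hcy replicate 3 there were 26 higher, beside 15.2% of all genes. The 3 largest were CHAC1, which degrades glutathione, at 4.68 (SE 0.50, adjusted p = 0.00054 by edgeR), the stress cofactor NUPR1 at 4.15 (SE 0.60, adjusted p = 0.0029) and DDIT4, an inhibitor of mTORC1, at 3.91 (SE 0.73, adjusted p = 0.0093). NUPR1 had only 7, 5 and 18 counts in HEK293T cells in +Met, so the size of its change rests on a low baseline. ATF4 itself, regulated mainly in translation, had 0.34 (SE 0.17, adjusted p = 0.27 by edgeR). Of 7 kinases and other genes acting on eIF2, 0 passed by edgeR, 2 were at an unadjusted p under 0.05, and without R1 −Met+Hcy replicate 3 there was 1 higher and 2 were lower. EIF2AK3, which encodes PERK, had 0.33 (SE 0.30) and EIF2AK4, which encodes GCN2, had -0.11 (SE 0.18). The 36 genes and the 30 ATF4 targets were not compared by a test.

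In each of 4 companion lists of other ER genes 0 or 1 gene changed in HEK293T cells with all libraries, beside the 4.25% higher and 2.78% lower of all genes. Of 33 further genes of ER folding and glycosylation, 1 was higher, TXNDC11, a thioredoxin domain protein of the ER, with 0.66 (SE 0.17, adjusted p = 0.035 by edgeR), and the median of the list was -0.16. Of 24 further genes of ER degradation, 1 was lower, UBE2G2, a ubiquitin-conjugating enzyme, with -1.04 (SE 0.19, adjusted p = 0.0080 by edgeR), and the median was -0.09. None of the 25 further genes of translocation, signal peptidase and COPII (median -0.19) and none of 15 other regulators (median 0.08) passed by edgeR, with 4 and 1 at an unadjusted p under 0.05. By DESeq2 1 gene of each of these 2 lists was lower. Without R1 −Met+Hcy replicate 3 the numbers higher and lower were 3 and 4 of the 33 folding genes, 4 and 5 of the 24 degradation genes, 1 and 4 of the 25 translocation genes and 0 and 2 of the 15 regulators, beside the 15.2% and 12.5% of all genes given above.

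**Figure D3:**
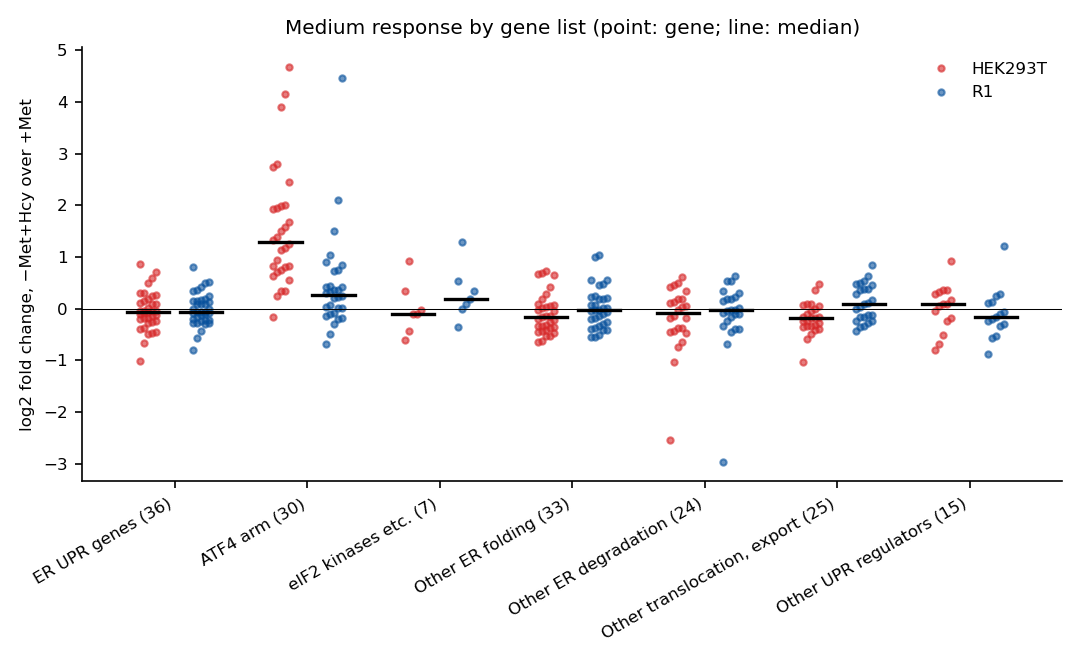
Log2 fold change of −Met+Hcy over +Met (y axis) for each gene (point) of 7 lists (x axis), in HEK293T and R1 cells, with a line at each median. In HEK293T cells the ATF4 arm has a median of 1.29, and the 36 ER genes have a median of -0.06.

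By the same edgeR test none of the 36 genes changed in R1 cells on −Met+Hcy medium, where 0.00583% of all genes did. None was under an unadjusted p of 0.05, where 7.78% of all genes were, and none was called by DESeq2, which called 0.233% of all genes. Without replicate 3 of −Met+Hcy, 0 of the 36 and 0.0176% of all genes changed. The median of the 36 was -0.06 with all libraries and -0.07 without that replicate. Across the 2 media, 1 gene was higher and 4 were lower without overlap, beside 5.32% and 5.76% of all genes. By column sums 1 was higher, MANF, and 2 were lower, beside 5.71% and 4.77%.

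XBP1 was at 112.8, 118.9 and 106.7 normalised CPM in R1 cells in +Met and at 101.8, 100.6 and 99.5 in −Met+Hcy. All 3 libraries in −Met+Hcy lay below those in +Met, with a log2 fold change of -0.17 (SE 0.15, 95% interval -0.49 to 0.16, adjusted p = 0.72 by edgeR). HSPA5 was at 951.1, 865.8 and 976.8 in +Met and at 980.3, 1020 and 1092 in −Met+Hcy, the one gene higher without overlap in TMM-scaled levels, with 0.15 (SE 0.15, 95% interval -0.18 to 0.48, adjusted p = 0.74 by edgeR). HERPUD1 was at 42.2, 56.6 and 39.7 and at 49.2, 49.0 and 32.8 normalised CPM, with overlap and a log2 fold change of -0.08 (SE 0.21, adjusted p = 0.89 by edgeR).

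Replicate 3 decided the estimates of several other members in R1 cells. HSP90B1 was at 1074, 978 and 1171 normalised CPM in +Met and at 930, 1218 and 2136 in −Met+Hcy, and its log2 fold change of 0.41 (SE 0.26, adjusted p = 0.65 by edgeR) was -0.0002 without replicate 3. DNAJB9 was at 7.41, 12.8 and 6.02 and at 10.5, 9.84 and 25.7, and its value of 0.80 (SE 0.39, adjusted p = 0.62 by edgeR) was 0.21 without replicate 3. SDF2L1 was at 54.0, 53.0 and 47.1 and at 46.4, 46.6 and 11.1, and its log2 fold change of -0.57 (SE 0.39, adjusted p = 0.67 by edgeR) was -0.14 without replicate 3. CRELD2 was at -0.29 (SE 0.29, adjusted p = 0.73 by edgeR) and at 0.03 without that library. The sensors had 0.25 for ATF6 (SE 0.26, adjusted p = 0.74 by edgeR), -0.27 for ATF6B (SE 0.29, adjusted p = 0.74) and -0.21 for ERN1 (SE 0.44, adjusted p = 0.87), and each sign turned without replicate 3. DERL3 had 0 counts in replicate 3. Of the 30 ATF4 targets, 0 passed in R1 cells by edgeR, with 9 under an unadjusted p of 0.05 and 4 called by DESeq2, and the median was 0.27. Without replicate 3 there were 2, with a median of 0.38.

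Whether R1 and HEK293T cells differed in their response to the medium was tested directly. No member passed by edgeR's quasi-likelihood test, where 0.0583% of all genes did, and 2 were above and 2 below 0 at an unadjusted p under 0.05, where 9.67% of all genes were. XBP1 had the lowest p, with a difference of -1.04 (SE 0.21, 95% interval -1.50 to -0.57, unadjusted p = 0.00038, adjusted p = 0.14 by edgeR). DESeq2 called XBP1 alone among the 36, beside 0.903% of all genes that were lower, with an adjusted p of 3.9e-05. Without R1 −Met+Hcy replicate 3 the adjusted p by edgeR was 0.021, beside 1.28% of all genes called lower, and over the alternatives that kept every library or removed the GC trend it ran from 3.9e-05 to 0.41. Over the 12 fits that left out 1 library it ran from 0.021 to 0.57, and the other 11 did not pass. The difference was -0.36 for HSPA5 (95% interval -0.82 to 0.11, adjusted p = 0.60 by edgeR) and -0.67 for HERPUD1 (95% interval -1.32 to -0.01, adjusted p = 0.51). HSP90B1 had 0.80 (95% interval -0.01 to 1.61, adjusted p = 0.52 by edgeR), DNAJB9 0.09 (SE 0.55, adjusted p = 0.98), SDF2L1 -0.33 (SE 0.56, adjusted p = 0.89) and CRELD2 -0.24 (SE 0.41, adjusted p = 0.89). The sensors had 0.06 for ATF6 (SE 0.37, adjusted p = 0.99 by edgeR), -0.57 for ATF6B (SE 0.41, adjusted p = 0.67) and -0.17 for ERN1 (SE 0.63, adjusted p = 0.96). These intervals do not show that the 2 lines responded alike. The HEK293T and R1 responses share no libraries.

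In +Met medium R1 cells had more HSPA5, PDIA4, EDEM3 and SEC24D and less SSR1 than HEK293T cells, and none of these 5 calls held in the fit without R1 +Met replicate 1. The comparison shares its HEK293T libraries with the medium comparison above. Of the 36 genes, 4 were higher and 1 was lower by edgeR's quasi-likelihood test, beside 5.69% and 4.48% of all genes. The median log2 fold change was 0.21 with 24 genes above 0, beside 0.02 for all genes, and 0.57 with 29 above 0 under column-sum scaling, beside 0.37. Without overlap, 16 genes were higher and 6 lower, beside 23.9% and 23.7% of all genes. By column sums 25 were higher and 1, SSR1, was lower, beside 42.6% and 10% of all genes.

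HSPA5 was at 951.1, 865.8 and 976.8 normalised CPM in R1 cells, against 622.9, 626.5 and 581.0 in HEK293T cells, and was 1.53-fold higher (log2 fold change 0.61, SE 0.15, adjusted p = 0.026 by edgeR). PDIA4, a disulphide isomerase, was at 519.5, 459.0 and 544.5 in R1 and at 308.6, 262.9 and 274.8 in HEK293T cells, with 0.85 (SE 0.19, adjusted p = 0.014 by edgeR). SEC24D was at 60.7, 50.5 and 56.3 in R1 and at 31.7, 34.1 and 32.0 in HEK293T cells, with 0.78 (SE 0.16, adjusted p = 0.0088 by edgeR). In none of these 3 genes did the lines overlap.

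EDEM3, a mannosidase that marks glycoproteins for degradation, was at 55.6, 45.6 and 61.4 normalised CPM in R1 and at 24.6, 39.8 and 29.8 in HEK293T cells, with 0.79 (SE 0.22, adjusted p = 0.038 by edgeR). SSR1 was the one lower gene, at 67.9, 95.9 and 65.4 in R1 and at 166.8, 170.0 and 203.7 in HEK293T cells, with -1.24 (SE 0.25, adjusted p = 0.0095 by edgeR). XBP1 was higher in R1 without overlap, at 0.39 (SE 0.15, adjusted p = 0.12 by edgeR), and its level in R1 cells lay between those of HEK293T cells in +Met and in −Met+Hcy.

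The other named genes did not pass. HERPUD1 had -0.58 (SE 0.21, adjusted p = 0.11 by edgeR) and DNAJB9 -0.73 (SE 0.39, adjusted p = 0.26), both lower in R1 without overlap, though with overlap by column sums. CRELD2 had 0.53 (SE 0.29, adjusted p = 0.28 by edgeR), HSP90B1 0.26 (SE 0.26, adjusted p = 0.58) and SDF2L1 0.16 (SE 0.39, adjusted p = 0.85). ATF6 had -0.10 (SE 0.26, adjusted p = 0.86 by edgeR), ATF6B -0.17 (SE 0.29, adjusted p = 0.77) and ERN1 0.29 (SE 0.45, adjusted p = 0.73).

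**Figure D4:**
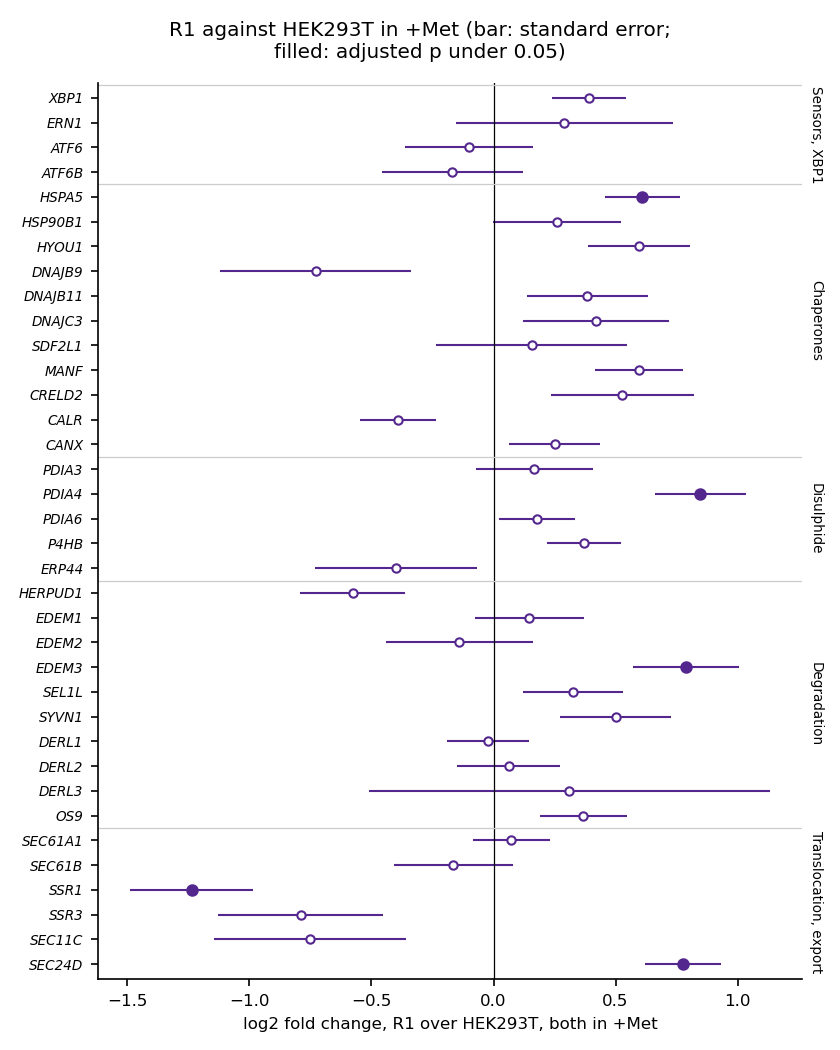
Log2 fold change of R1 over HEK293T cells, both in +Met (x axis), for the 36 genes (y axis, grouped by role), with bars for the standard error and filled points for adjusted p under 0.05 by edgeR. HSPA5, PDIA4, EDEM3 and SEC24D are filled to the right of 0 and SSR1 to the left.

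This count depended on single libraries. Without R1 −Met+Hcy replicate 3, 10 genes were higher and 6 lower, beside 17.0% and 15.7% of all genes. HSPA5, XBP1, EDEM3, MANF, HYOU1, SEC24D, PDIA4, SYVN1, CRELD2 and P4HB were the higher ones, and ERP44, HERPUD1, SSR3, SSR1, DNAJB9 and CALR the lower ones. Of the 5 genes called with all libraries, 0 passed without R1 +Met replicate 1, 1 without R1 +Met replicate 3, 2 without HEK293T +Met replicate 3, and 3 each without HEK293T +Met replicate 1 or 2 or HEK293T −Met+Hcy replicate 2. The ATF4 targets stood mostly the other way, with 1 of 30 higher in R1, VLDLR, a lipoprotein receptor, at 1.42 (SE 0.22, adjusted p = 0.0025 by edgeR), 8 lower and a median of -0.53. Of all genes 5.69% were higher and 4.48% lower. Without R1 −Met+Hcy replicate 3 there were 5 higher and 16 lower of the 30, beside the 17.0% and 15.7% of all genes given above. The 3 largest decreases were in NUPR1, for which R1 had 0, 0 and 1 counts and no fold is given, SLC7A11, the cystine importer, at -1.52 (SE 0.27, adjusted p = 0.0046 by edgeR), and ATF3, a stress transcription factor, at -1.38 (SE 0.28, adjusted p = 0.0098). Of the other lists, CREB3L1 and CREB3L2, which encode membrane-bound relatives of ATF6, were higher at 2.04 (SE 0.43, adjusted p = 0.012 by edgeR) and 1.10 (SE 0.32, adjusted p = 0.047). TMX1, an ER thioredoxin, was lower at -0.93 (SE 0.18, adjusted p = 0.0071 by edgeR), and EIF2S1, the alpha subunit of eIF2, at -0.75 (SE 0.21, adjusted p = 0.040).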

How the data were processed

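The data are RNA sequencing libraries of HEK293T and R1 cells kept for 12 h in either medium. The authors quantified the reads with kallisto 0.48.0 (per the labels) against GRCh38 and deposited estimated counts, summed per Ensembl gene and converted to whole numbers without scaling for depth. Libraries of MB468 and R8 were not used here. The sources name an HA-PP2Ac HEK293T line among those used, without saying whether it gave this RNA.

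The 36 genes and the companion lists were chosen with earlier results of these data known. Entries with a summed count under 10 were left out, which left 17162, and these were fitted after TMM scaling with the quasi-likelihood method of edgeR 4.0.16 (R 4.3.3), using 1 coefficient per group and all 12 libraries (8 residual degrees of freedom). Benjamini-Hochberg adjustment covered every gene tested, and the threshold was 0.05. Levels per kilobase used the length of the canonical transcript. XBP1, ERN1, ATF6, ATF6B, HSPA5, HSP90B1, DNAJB9, HERPUD1, SDF2L1 and CRELD2 are always given, with the 5 largest changes in each direction among members that passed and the 3 largest of each companion list. Other members were named after their values were seen. Intervals are at 95% from the fit's standard error and its total degrees of freedom.

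Alternatives were DESeq2 1.42.0, fits on the 6 libraries of one comparison, column-sum and RLE scaling, other filters, an added 2-fold threshold, the replicate block, robust estimation, removal of the trend with GC content and length within each library (loess span 0.3), each library left out, and, chosen after seeing the data, all entries of a symbol added. On simulated data for the HEK293T comparison (17009 genes), edgeR recovered 93 of 100 genes changed 2-fold and 100 of 100 changed 4-fold, with 8 false calls. The simulated spread was that of the libraries without R1 −Met+Hcy replicate 3 (common dispersion 0.035, against 0.109 with it). Only genes above a minimum level were changed. The recovery in the main fit, which kept that library, was therefore not measured. Replicates differed beyond counting noise, since the chi-square per gene between them was 7.37 to 94.6, or 214 and 245 where R1 −Met+Hcy replicate 3 took part.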

Additional observations from a re-analysis of the deposited data

Results flagged for a closer look

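XBP1 was set apart because all 3 HEK293T libraries in −Met+Hcy lay above, and all 3 R1 libraries in −Met+Hcy below, the +Met libraries of their own line. The difference between the responses was -1.04 on the log2 scale, with an adjusted p of 0.14 by edgeR's interaction test. The R1 levels were close, at 106.7 to 118.9 normalised CPM in +Met and 99.5 to 101.8 in −Met+Hcy. Of the 13895 genes compared for overlap, 25.9% were higher without overlap in HEK293T cells and 5.76% lower in R1 cells. The share with both was not counted over all genes, so how unusual the pattern is was not measured.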

How the results depend on the processing

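In HEK293T cells the count of 1 changed member was 0 with an added 2-fold threshold, 2 with filterByExpr, 3 with column sums, 4 with DESeq2, 5 with the GC and length trend removed, 13 with that removal and without R1 −Met+Hcy replicate 3, 8 with edgeR and 12 with DESeq2 on the 6 libraries of the comparison, and 1 to 6 when single libraries were left out. In R1 cells it was 0 throughout. For the difference, 1 (XBP1) was called by DESeq2, with column sums, and with the trend removed with or without that replicate, and 0 to 1 when single libraries were left out. For R1 against HEK293T the 5 became 1 with the 2-fold threshold, 10 with DESeq2, 15 with DESeq2 and 11 with edgeR on 6 libraries, 15 with column sums, 11 with the trend removed, 23 with that and without the replicate, and 0 to 16 when single libraries were left out. With the replicate block the counts were 1, 0, 0 and 3. Same-numbered libraries deviated together with r of -0.01, -0.09 and 0.49 in HEK293T and 0.08, -0.48 and -0.09 in R1, so the numbers were not taken as pairs. The causes of these shifts were not tested.

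Signs turned in members that passed in neither fit. With column sums the values were 0.26 for ERN1, 0.057 for SDF2L1, 0.25 for CRELD2 and 0.10 for SEC24D in HEK293T, -0.32 for ATF6 and -0.28 for DNAJB9 in the difference, and 0.25 for ATF6 and 0.19 for ATF6B in R1 against HEK293T. With the trend removed they were 0.13 for SDF2L1 and 0.18 for CRELD2 in HEK293T, 0.11 for CRELD2 in R1, 0.026 for ERN1, -0.074 for ATF6 and -0.26 for DNAJB9 in the difference, and -0.064 for ERN1 in R1 against HEK293T. With the trend removed and without R1 −Met+Hcy replicate 3 they were 0.12 for SDF2L1 and 0.17 for CRELD2 in HEK293T, 0.18 for ERN1, -0.25 for ATF6, 0.051 for ATF6B, -0.028 for HSP90B1, 0.059 for HERPUD1 and 0.053 for CRELD2 in R1, 0.38 for ERN1, -0.33 for ATF6 and -0.46 for DNAJB9 in the difference, and -0.063 for ERN1 in R1 against HEK293T. Over the fits without 1 library, values crossed 0 for some of these members. In HEK293T they ran from -0.21 to 0.15 for ERN1 and -0.14 to 0.062 for CRELD2. In R1 they ran from -0.56 to 0.22 for ERN1, -0.21 to 0.45 for ATF6, -0.51 to 0.055 for ATF6B, -0.0002 to 0.64 for HSP90B1, -0.18 to 0.091 for HERPUD1 and -0.58 to 0.029 for CRELD2. In the difference they ran from -0.51 to 0.26 for ERN1, -0.40 to 0.25 for ATF6, -0.51 to 0.48 for DNAJB9, -0.60 to 0.10 for SDF2L1 and -0.52 to 0.081 for CRELD2. Values for named members were recomputed for the 10 genes always given, those that passed, and CALR, ERP44, SSR3, SSR1, SEC24D and SEC61A1 in HEK293T. Beside the turned signs, 543 kept their direction and their side of the threshold under other settings, 53 came past it and 7 no longer passed. Under fits without 1 library 549 kept both, 10 came past the threshold and 18 no longer passed.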
